A study of Caenorhabditis elegans with 14 samples.

Results

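Ligand-gated ion channel genes of Caenorhabditis elegans were followed through 13 RNA-seq libraries of whole worms. The members are the genes whose public name begins with lgc, acr, glr or nmr followed by a number. There were 84 of them among the 20376 genes with a value in every library, namely 53 lgc, 21 acr, 8 glr and 2 nmr genes. These channels open when a neurotransmitter binds them, and so turn a chemical signal at a synapse into a current. The acr and lgc genes encode subunits of the pentameric Cys-loop family. Its acr members are relatives of nicotinic acetylcholine receptors, and its lgc members include channels for GABA, acetylcholine, serotonin, dopamine and tyramine, and others whose ligand is not stated here. The glr and nmr genes encode ionotropic glutamate receptor subunits of the non-NMDA and NMDA kinds. In the worm such receptors act mainly in neurons and muscle, where they drive or inhibit locomotion, feeding, egg laying and mating.

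The worms came from 2 strains in which sexual fate and the number of X chromosomes are uncoupled. Animals of TY2205, called XO hermaphrodites below, had the hermaphrodite form and a single X chromosome. Those of CB5362, called XX males, had the male form and 2 X chromosomes. The labels give no alleles. As background, both strains are known to carry a mutation in xol-1, the switch gene of sex determination and dosage compensation, TY2205 with further mutations in her-1 and sdc-3, and CB5362 with one in tra-2. Larvae of the L3 stage were collected after 24 h of growth following overnight hatching, at a temperature that is not given, and young adults after 44 h at 25 °C. There were 3 libraries of XO hermaphrodite L3 larvae, 3 of XX male L3 larvae, 3 of XO hermaphrodite young adults and 4 of XX male young adults, and 1 TY2205 young adult library labelled as reverted entered no comparison. Strain, sexual form and X number change together in every comparison of the animals, and cannot be told apart. In whole worms, fewer cells of a type and less RNA per cell cannot be told apart either. The labels do not say whether replicates came from separate cultures, so p-values measure only the spread between these libraries.

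The deposited values are FPKM, fragments scaled to transcript length and library size, and their sums per library ran from 916127 to 1574087. Absolute depth is unknown. Relative to replicate 1 of the XX male young adults, the larval libraries had depths of 0.224 to 0.919 and the young adult libraries 0.619 to 1.459. The gene xol-1 was listed at 0 in all 13 libraries. The dosage compensation gene sdc-3 ranged over 0.240 to 0.416 FPKM in the XO libraries and over 1.32 to 5.31 FPKM in the XX libraries. The larval libraries agreed less within their groups than the young adult libraries, with Spearman correlations across genes of 0.886 to 0.978 against 0.948 to 0.988. XX male L3 replicate 1 agreed least with its own group, at 0.886 to 0.914. XO hermaphrodite L3 replicate 1 correlated at 0.907 to 0.917 with its own group and at up to 0.943 with XX male larvae, namely with replicate 2, which reached 0.932 at most within its own group. XO hermaphrodite L3 replicate 1 also stood out in the members. It held the highest value of all 13 libraries for 18 of the 36 members tested, and the highest of its own group for 32 of the 36. The geometric mean of 14 pan-neuronal genes was also highest there, at 27.6 FPKM, and the lowest library of that group was at 13.6 FPKM. Counts at L3 are given with and without each of these 3 libraries.

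Most of the channel genes were scarce in whole-worm RNA. A gene was tested if its mean over the 13 libraries reached 1 FPKM, which 36 of the 84 members did (42.9%) against 71.8% of all genes. By role, these were 6 of 21 acr genes, 4 of 8 glr genes, 0 of 2 nmr genes, 4 of 4 amine-gated lgc genes, 2 of 3 acetylcholine-gated chloride channel lgc genes, 2 of 3 GABA receptor lgc genes and 18 of the 43 other lgc genes. A mean of at least 10 FPKM was reached by 5 members, 5.95% of them, against 42.1% of all genes. The 48 members below the filter included 27 whose highest library stayed under 1 FPKM, and lgc-15 was listed at 0 in every library. The X chromosome carried 26 of the 84 members (31%), against 13.8% of all genes. Of the others, 5 lie on chromosome I, 11 on II, 10 on III, 14 on IV and 18 on V. Some members are next to each other in the genome, as acr-15 and acr-16 on chromosome V, acr-2 and acr-3 on X, and a run of 5 genes from lgc-13 to lgc-17 on X whose highest value in any library was 0.182 FPKM. No source used here says whether the quantification used the strand, so reads at overlapping ends of neighbours may be shared.

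**Figure D1:**
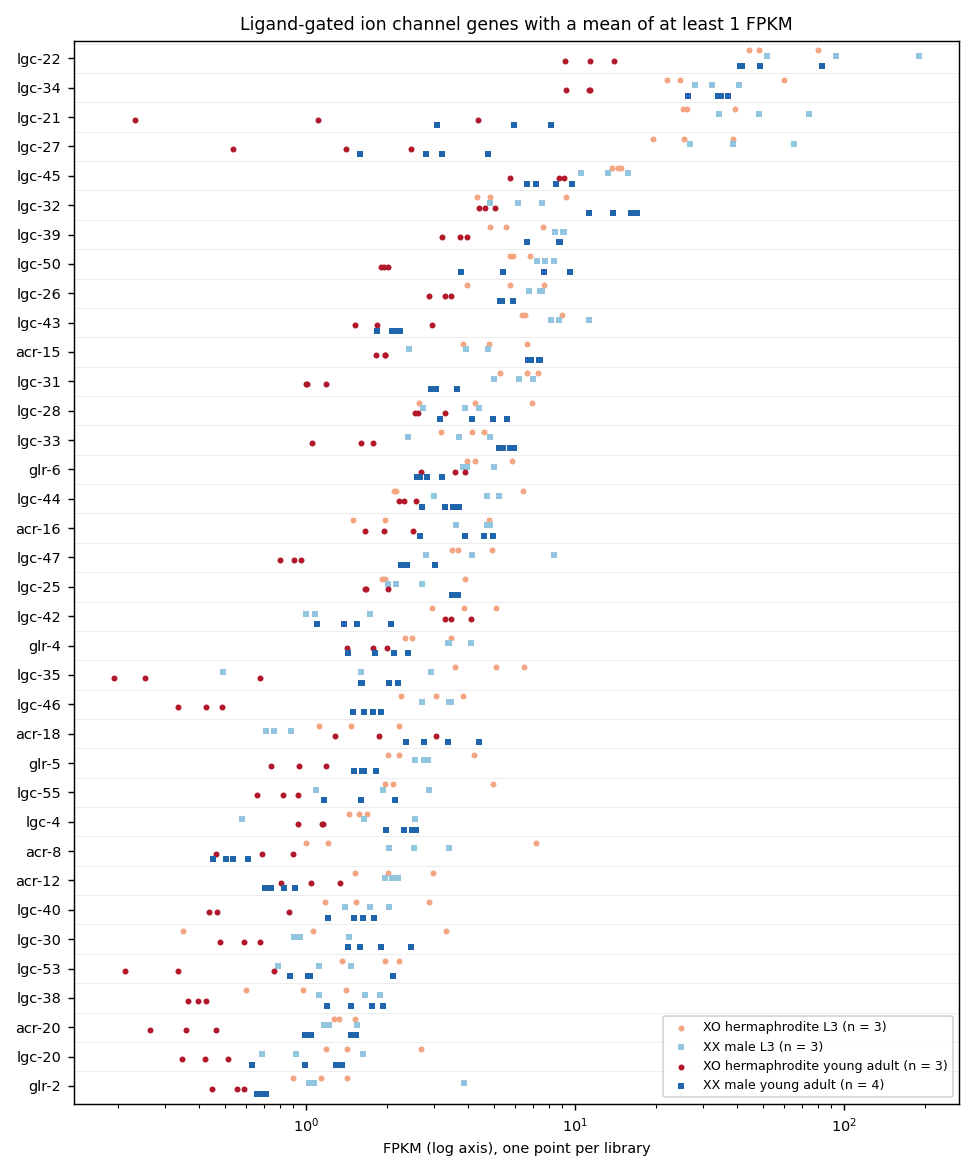
FPKM of the 36 tested members (vertical axis, ordered by mean) in each of the 13 libraries (horizontal log axis), with circles for XO hermaphrodites, squares for XX males, pale colours for L3 and dark colours for young adults. On the deposited scale lgc-22 and lgc-34 have the highest means, and the dark red circles of XO hermaphrodite young adults lie furthest left for many members, as in lgc-22 at 9.18 to 14.1 FPKM.

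A handful of lgc genes made up much of the family's signal. In XO hermaphrodite L3 larvae lgc-22, on chromosome IV, was at 80.1, 44.4 and 48.6 FPKM, and in XX male L3 larvae at 93.3, 51.8 and 191 FPKM. In young adults it was at 11.4, 9.18 and 14.1 FPKM in XO hermaphrodites and at 48.7, 41.7, 41 and 83 FPKM in XX males. The young adult groups did not overlap, and the L3 groups did. The gene lgc-34, on chromosome II, was at 60, 24.7 and 22.1 FPKM in XO hermaphrodite L3 larvae and at 40.7, 32.4 and 28.1 FPKM in XX male L3 larvae. Its young adult values were 11.3, 9.27 and 11.3 FPKM in XO hermaphrodites and 35, 34.2, 26.5 and 37 FPKM in XX males, again without overlap. At L3 the next in order were lgc-21 on X, at 30.3 ± 7.89 FPKM (SD, n = 3) in XO hermaphrodites and 52.4 ± 20.2 (n = 3) in XX males, and lgc-27 on II, at 27.9 ± 9.82 and 43.7 ± 19.8 FPKM. These 4 genes held 48.4% to 52.7% of the members' summed FPKM in XO hermaphrodite L3 libraries and 53.1% to 67.1% in XX male L3 libraries. In young adults they held 24.6% to 30.9% and 40.3% to 48.9%. The fifth gene above 10 FPKM in the mean was lgc-45, on II, at 14.4 ± 0.585 and 13.2 ± 2.58 FPKM at L3 and 7.84 ± 1.83 and 8.01 ± 1.42 FPKM in young adults, in XO hermaphrodites and XX males respectively.

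The summed FPKM of all 84 members separated the young adults but not the larvae. The 3 XO hermaphrodite young adult libraries summed to 78.1, 88.9 and 104.4 FPKM from lowest to highest, and the 4 XX male young adult libraries ranged from 185.3 to 263.1 FPKM with a median of 209. At L3 the sums were 235.3 to 414.4 FPKM with a median of 246 in XO hermaphrodites, and 300.7 to 474.5 with a median of 383.2 in XX males. The 414.4 FPKM came from replicate 1. Members at 1 FPKM or more numbered 20 to 23 per library in XO hermaphrodite young adults and 32 to 37 in XX male young adults, against 38 to 48 and 37 to 42 at L3.

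In young adults, 21 of the 36 tested members were lower in XO hermaphrodites than in XX males and 1 was higher on the deposited scale (limma on log2(FPKM + 1), Benjamini-Hochberg adjusted p under 0.05), whereas scaling to pan-neuronal genes gave 0 lower and 10 higher and quantile normalization gave 6 lower and 5 higher. Of all genes tested, 33.3% were lower and 33.9% higher on the deposited scale, 15.3% and 57.6% under pan-neuronal scaling, and 26.4% and 40.4% under quantile normalization. The members called higher were thus 27.8% of those tested under pan-neuronal scaling and 13.9% under quantile normalization, in both cases a smaller share than that of all genes. The median difference of the members was -0.70 on the log2 scale, against -0.11 for all 14628 genes, and 32 of the 36 members were below 0. Under upper quartile and median ratio scaling 28 and 26 members were lower, with 1 higher in each. Of all genes 40.8% and 38% were lower under these scalings, and 29.3% and 32.5% higher. The scalings moved the median of all genes from -0.11 to -0.34 (upper quartile), -0.23 (median ratio), 0.27 (quantile) and 0.99 (pan-neuronal). Against these the members' medians were -0.86, -0.81, -0.02 and 0.15, each below that of all genes. Upper quartile, median ratio and pan-neuronal scaling divide all genes of a library by the same factor. The 1 FPKM added before the log damps the shift of low genes. Pan-neuronal scaling moved the members' median from -0.70 to 0.15, and that of all genes from -0.11 to 0.99. As the same factor serves all genes of a library, the order of the medians under these scalings is no separate evidence. Quantile normalization could have changed the order, and there the members' median was lower, at -0.02 against 0.27. This difference of medians was not tested. The members were scarcer than most genes, and they were not compared with genes of like level. The libraries of the groups did not overlap for 25 members lower in XO hermaphrodites and 1 higher, against 38.1% and 37.5% of all genes.

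Markers of several tissues moved with this result on the deposited scale. Of 14 pan-neuronal genes tested 10 were lower and 0 higher, with a median of -1.11, and their summed FPKM was 386 to 404 in the XO libraries and 750 to 922 in the XX libraries. Of 9 body wall muscle genes 7 were lower, with sums of 3430 to 4250 FPKM against 8550 to 11600. All 4 pharyngeal muscle genes and 6 of 8 intestine genes were lower, while 10 of 12 germline genes were higher, with sums of 1540 to 1690 FPKM against 451 to 522 FPKM. Of 6 genes of male-specific neurons 6 were lower, with sums of 2.39 to 2.99 FPKM against 176 to 247, and 8 of 9 sperm genes were lower. Among these, cwp-3, cwp-5, pkd-2, spe-9, spe-38 and spe-42 averaged under 1 FPKM in every other group. They passed the filter only through the XX male young adults, so their direction was fixed beforehand. No gene of these lists was at 0 in a whole group. The part of these tissues in the members' differences was not tested beyond the pan-neuronal scaling, which divides each library by the geometric mean of the 14 neuronal genes. The ratio of the members' sum to that of the pan-neuronal genes was 0.196 to 0.27 in XO hermaphrodite and 0.238 to 0.285 in XX male young adults, which overlap. In XO hermaphrodites the pan-neuronal sum leans on snb-1, which was not lower in them, at 199 ± 23.5 against 165 ± 30.9 FPKM. By library, snb-1 was at 193, 225 and 179 FPKM of pan-neuronal sums of 404, 399 and 386 FPKM in XO hermaphrodites. In XX males it was at 153, 146, 150 and 211 FPKM of sums of 767, 750, 780 and 922 FPKM. A ratio without snb-1 was not computed, so the overlap is stated only for sums that include it. It does not show that members and neuronal genes changed alike.

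**Figure D2:**
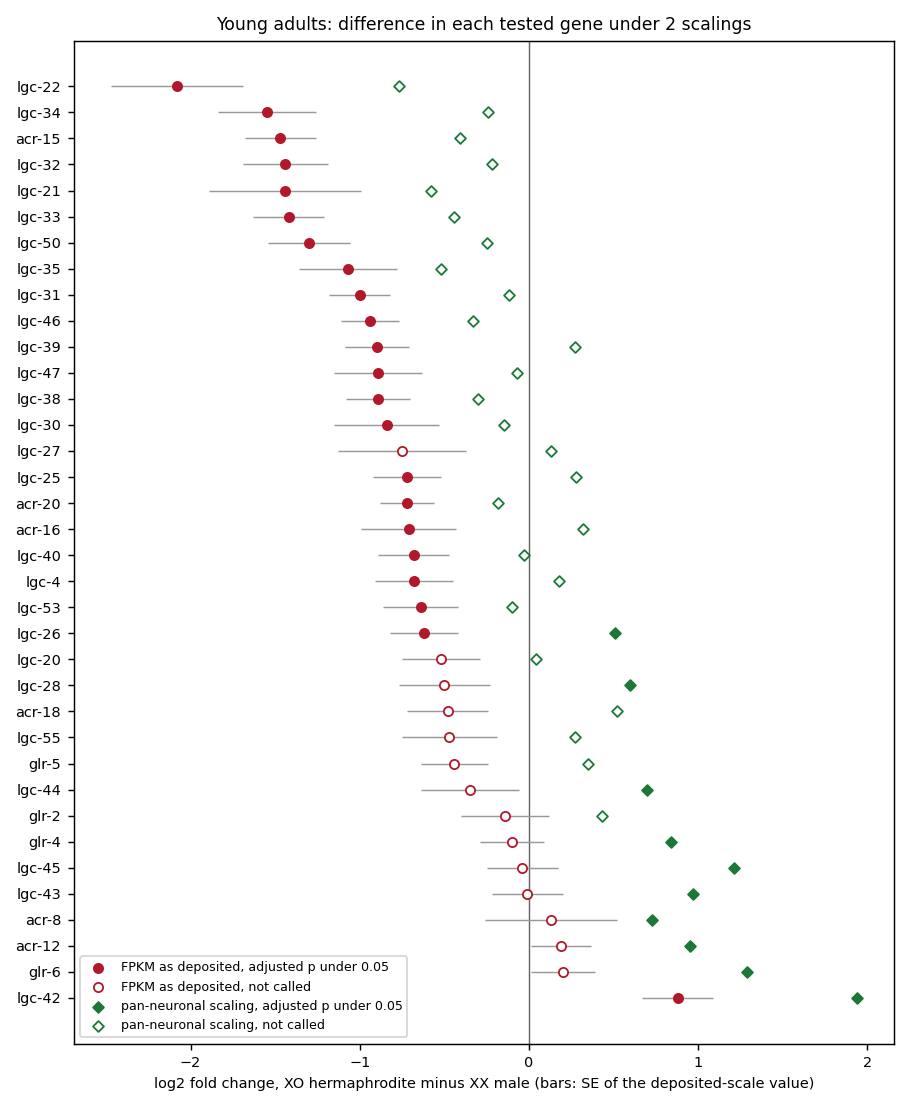
Difference between XO hermaphrodite (n = 3) and XX male (n = 4) young adults for the 36 tested members, as log2 fold change on log2(FPKM + 1), with circles for FPKM as deposited (bars, SE) and diamonds after pan-neuronal scaling; filled symbols have an adjusted p under 0.05. On the deposited scale 21 members are called below 0 and lgc-42 above it, while on the pan-neuronal scale 0 are called below 0 and 10 above.

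Among the nicotinic-type acr genes, acr-15, acr-16 and acr-20 were lower in XO hermaphrodite young adults on the deposited scale. These were 3 of the 6 tested, against 33.3% of all genes. The gene acr-15 was at 1.97, 1.83 and 1.97 FPKM in XO hermaphrodites and at 7.39, 7.44, 6.87 and 6.69 FPKM in XX males. Its groups lay far apart, and the fold change, here as below on log2(FPKM + 1), was -1.47 (SE 0.21, limma adjusted p = 5.6e-05), with -0.41 without a call under pan-neuronal scaling. Its neighbour acr-16, the subunit of the nicotine-sensitive receptor of body wall muscle, was at 1.95, 1.67 and 2.5 FPKM against 4.59, 3.92, 2.67 and 4.97 FPKM, groups that almost met. Its change of -0.71 (SE 0.28, limma adjusted p = 0.0396) was 0.00 under quantile normalization and 0.32 under pan-neuronal scaling, so its direction depends on the scale, and the call was lost in 5 of the fits that left out 1 library (XO hermaphrodite young adult replicate 1 or 2, XX male young adult replicate 1, 2 or 4). The gene acr-20, of the nematode DEG-3 group of subunits, was at 0.465, 0.357 and 0.264 FPKM against 1.04, 0.99, 1.47 and 1.54 FPKM, with -0.72 (SE 0.16, limma adjusted p = 0.00127). No call was made on the deposited scale for acr-8, a relative of levamisole receptor subunits (0.683 ± 0.218 against 0.526 ± 0.066 FPKM), for acr-12, a receptor subunit of motor neurons (1.06 ± 0.265 against 0.797 ± 0.0944 FPKM), or for acr-18 (2.06 ± 0.896 against 3.22 ± 0.893 FPKM). With pan-neuronal scaling acr-8 and acr-12 were called higher in XO hermaphrodites.

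The lgc channels for GABA, acetylcholine and amines were mostly lower in XO hermaphrodite young adults on the deposited scale, and none of them was called under pan-neuronal scaling. The gene lgc-35, which encodes a GABA-gated cation channel, was at 0.252, 0.194 and 0.676 FPKM in XO hermaphrodites and at 2.03, 1.6, 1.62 and 2.2 FPKM in XX males. Its groups did not overlap and its difference was -1.07 (SE 0.29, limma adjusted p = 0.00599), with -0.52 under pan-neuronal scaling. The GABA receptor gene lgc-38 was at 0.397, 0.366 and 0.425 FPKM against 1.48, 1.2, 1.77 and 1.94 FPKM, with -0.89 (SE 0.19, limma adjusted p = 0.00103). For acetylcholine-gated chloride channels, lgc-46, which acts in presynaptic inhibition, was at 0.337, 0.488 and 0.426 FPKM against 1.65, 1.78, 1.5 and 1.91 FPKM. Its fold change was -0.94 (SE 0.17, limma adjusted p = 4.0e-04), and that of lgc-47 was -0.89 (SE 0.26, limma adjusted p = 0.00901) at 0.891 ± 0.0816 against 2.51 ± 0.352 FPKM. Every XO hermaphrodite library was below every XX male library for both.

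Of the amine-gated channels, lgc-50, a serotonin-gated cation channel known from learned pathogen avoidance, was at 1.91, 1.95 and 2.02 FPKM in XO hermaphrodites and at 7.67, 5.43, 3.79 and 9.64 FPKM in XX males. The XO hermaphrodite libraries were close together and the XX male libraries were spread, with a difference of -1.30 (SE 0.24, limma adjusted p = 3.9e-04). The gene lgc-40, for an anion channel that serotonin and choline can open, was at 0.591 ± 0.243 against 1.54 ± 0.247 FPKM (-0.68, SE 0.21, limma adjusted p = 0.0125), a call lost without XO hermaphrodite young adult replicate 2. The dopamine-gated chloride channel gene lgc-53 was at 0.436 ± 0.289 against 1.26 ± 0.572 FPKM (-0.64, SE 0.22, limma adjusted p = 0.0225), a call lost without XO hermaphrodite young adult replicate 1 or 2 or XX male young adult replicate 4. The tyramine-gated chloride channel gene lgc-55 was at 0.807 ± 0.14 against 1.52 ± 0.465 FPKM and was not called (-0.47, limma adjusted p = 0.156).

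The largest differences lay among the other lgc genes. Of these 11 of 18 were lower and lgc-42 was higher on the deposited scale, against 33.3% and 33.9% of all genes. Quantile normalization kept lgc-22, lgc-32, lgc-33 and lgc-34 lower, and pan-neuronal scaling kept none. Whether the role groups differ from each other was not tested. The fold change of lgc-22 was -2.08 (SE 0.39, limma adjusted p = 4.3e-04) and that of lgc-34 was -1.55 (SE 0.29, limma adjusted p = 4.5e-04), from the values given above. For lgc-32, on X, the XO hermaphrodite libraries were at 4.65, 4.39 and 5.07 FPKM and the XX male libraries at 17.1, 16.2, 11.2 and 13.9 FPKM. These are far apart, with a fold change of -1.44 (SE 0.25, limma adjusted p = 2.2e-04), and -0.22 without a call under pan-neuronal scaling. For lgc-21 the values of 1.11, 0.232 and 4.37 FPKM against 5.95, 3.08, 8.14 and 5.95 FPKM overlapped, and its fold change of -1.44 (SE 0.45, limma adjusted p = 0.0124) lost its call without XO hermaphrodite young adult replicate 2. The gene lgc-39, for a channel reported to open to both acetylcholine and amines, was at 3.65 ± 0.387 against 7.7 ± 1.22 FPKM, with -0.90 on the deposited scale and 0.27, not called, under pan-neuronal scaling. For lgc-26, chosen here after its values were seen, the sign and the call depend on the scale. It was lower as deposited (-0.62, limma adjusted p = 0.0133; 3.21 ± 0.301 against 5.46 ± 0.304 FPKM) and higher under pan-neuronal scaling (0.51, limma adjusted p = 0.0244), and its deposited-scale call was lost without XO hermaphrodite young adult replicate 2.

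The gene lgc-42, on chromosome III, was the only tested member called higher in XO hermaphrodites at both stages, as deposited and under the other 4 scalings. In young adults it was at 3.3, 4.11 and 3.48 FPKM in XO hermaphrodites and at 1.1, 1.39, 1.54 and 2.08 FPKM in XX males. At L3 it was at 5.09, 3.88 and 2.95 FPKM in XO hermaphrodites and at 1, 1.74 and 1.08 FPKM in XX males. The groups did not overlap at either stage. The difference was 0.88 in young adults (SE 0.21, limma adjusted p = 0.00226) and 1.12 at L3 (SE 0.22, limma adjusted p = 0.0159). Quantile normalization made the young adult value 1.68 and pan-neuronal scaling 1.94, and it kept its call without any 1 library. At L3 the call was lost without XO hermaphrodite replicate 2 or without XX male replicate 1.

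**Figure D3:**
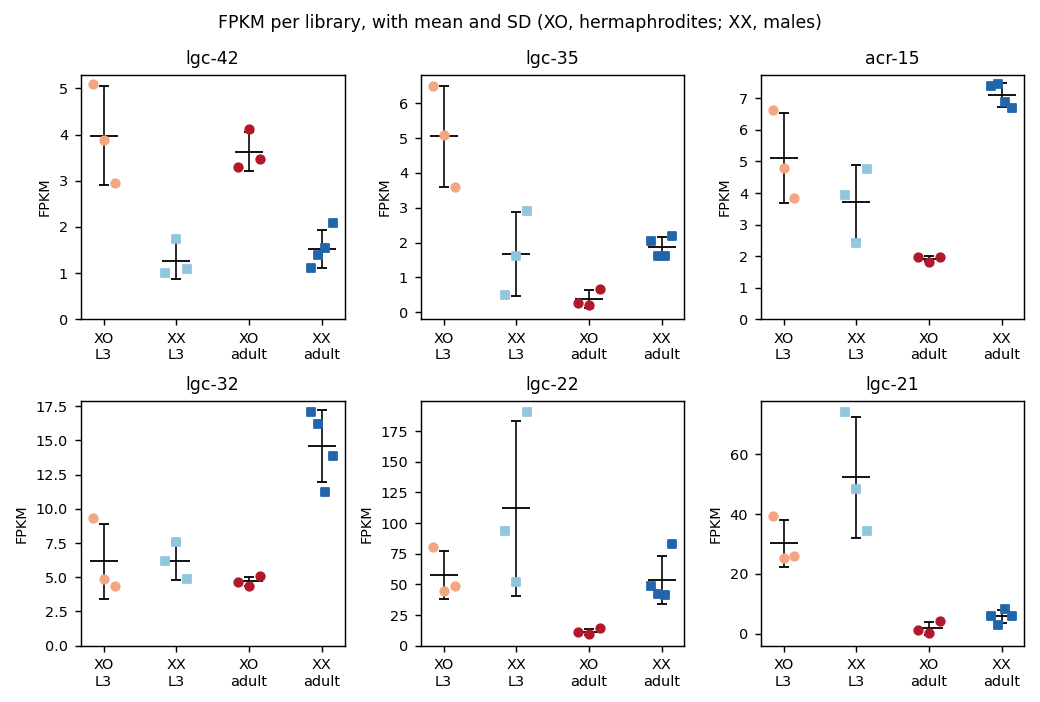
FPKM of 6 members in each library (points; circles, XO hermaphrodites; squares, XX males), with the group mean (horizontal bar) and SD (error bar; n = 3, 3, 3 and 4 from left to right). On this deposited scale lgc-42 is higher in XO hermaphrodites at both stages, lgc-35 is higher in them at L3 and lower in young adults, and acr-15, lgc-32 and lgc-22 are separated in young adults, while lgc-21 overlaps there.

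Of the 4 tested glutamate receptor genes, 0 were called in young adults on the deposited scale by limma. Of all genes 33.3% were lower and 33.9% higher there. At an unadjusted p under 0.05 there was 1 glutamate receptor gene, glr-5, with -0.44 (limma adjusted p = 0.0679). The kainate-type subunit gene glr-6 was at 2.68, 3.6 and 3.91 FPKM in XO hermaphrodites and at 3.21, 2.59, 2.65 and 2.81 FPKM in XX males, which overlap. Its fold change was 0.20 (SE 0.19) as deposited and 1.29 under pan-neuronal scaling, where it and glr-4 were called higher. The gene glr-4 was at 1.74 ± 0.291 against 1.95 ± 0.416 FPKM, and glr-5 at 0.96 ± 0.224 against 1.65 ± 0.128 FPKM. The AMPA-type partner gene glr-2 was at 0.532 ± 0.0734 against 0.682 ± 0.0226 FPKM. Whether the glr genes differ from the other members was not tested.

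At L3 few channel genes were called between the animals, as were few of all genes. The members' differences ran from -0.80 to 1.26 on the log2 scale, so few calls do not mean small differences. Of the 36 tested members 2 were higher in XO hermaphrodites, lgc-42 and lgc-35, against 1.26% of all genes, and 0 were lower, against 4.31%. At an unadjusted limma p under 0.05 there were 2 higher and 1 lower. The members' median difference was 0.01, against -0.25 for all genes. Libraries did not overlap for 3 members higher and 2 lower, against 4.91% and 13.2% of all genes, the third higher one being acr-18 and the lower ones lgc-39 and lgc-50. The GABA-gated cation channel gene lgc-35 was at 6.5, 5.08 and 3.58 FPKM in XO hermaphrodite larvae and at 0.494, 1.6 and 2.92 FPKM in XX male larvae. The XX male values spread widely, and the fold change of 1.26 (SE 0.31, limma adjusted p = 0.0381) lost its call in 9 of the fits that left out 1 library, those without XO hermaphrodite L3 replicate 2 or 3 or XX male L3 replicate 1 among them. A fit of only the L3 libraries called 0 members in either direction, but also only 0.00684% of all genes higher and 0.0137% lower. It therefore says little about the members. Without XX male replicate 1 the counts were 0 and 0, against 0.561% of all genes higher and 1.42% lower in that fit, and without XX male replicate 2 they were 2 higher and 0 lower, against 2.39% and 10.9%. Without XO hermaphrodite replicate 1, 2 members were higher and 5 lower, or 5.56% and 13.9%, against 5% and 25.4% of all genes in the same fit. The 5 lower ones were acr-16, acr-8, lgc-26, lgc-39 and lgc-44. For acr-8 that library had 7.16 FPKM and the others of its group 1.01 and 1.21 FPKM, against 2.52, 2.03 and 3.41 FPKM in XX males.

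The difference between the animals changed from L3 to young adults for 13 of the 36 tested members, all toward lower levels in XO hermaphrodites on the deposited scale (interaction, limma adjusted p under 0.05), whereas pan-neuronal scaling gave 2 of this direction and 5 of the other, and quantile normalization 7 and 2. Of all genes, 23.9% had a lower and 32.6% a higher interaction on the deposited scale, 12.2% and 47.6% under pan-neuronal scaling, and 23.2% and 32.4% under quantile normalization. The 13 were lgc-35, acr-15, lgc-33, lgc-34, lgc-32, lgc-31, lgc-53, acr-18, lgc-50, lgc-20, lgc-46, lgc-25 and acr-20. The interaction was steepest for lgc-35 (-2.33, SE 0.43, limma adjusted p = 6.0e-04), whose difference was of opposite sign at the 2 stages. Next came acr-15 (-1.85, SE 0.31, limma adjusted p = 3.2e-04), at 5.1 ± 1.42 FPKM in XO hermaphrodite and 3.71 ± 1.18 FPKM in XX male larvae. These 2 genes were also called under pan-neuronal scaling, at -1.95 and -1.04. The genes lgc-33 (-1.54, SE 0.31, limma adjusted p = 0.00116) and lgc-34 (-1.49, SE 0.43, limma adjusted p = 0.00994) followed. On chromosome IV, lgc-33 was at 3.98 ± 0.731 and 3.66 ± 1.22 FPKM at L3 and at 1.48 ± 0.379 and 5.58 ± 0.313 FPKM in young adults, in XO hermaphrodites and XX males. For lgc-42 the interaction was -0.24 (SE 0.30, limma adjusted p = 0.53).

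**Figure D4:**
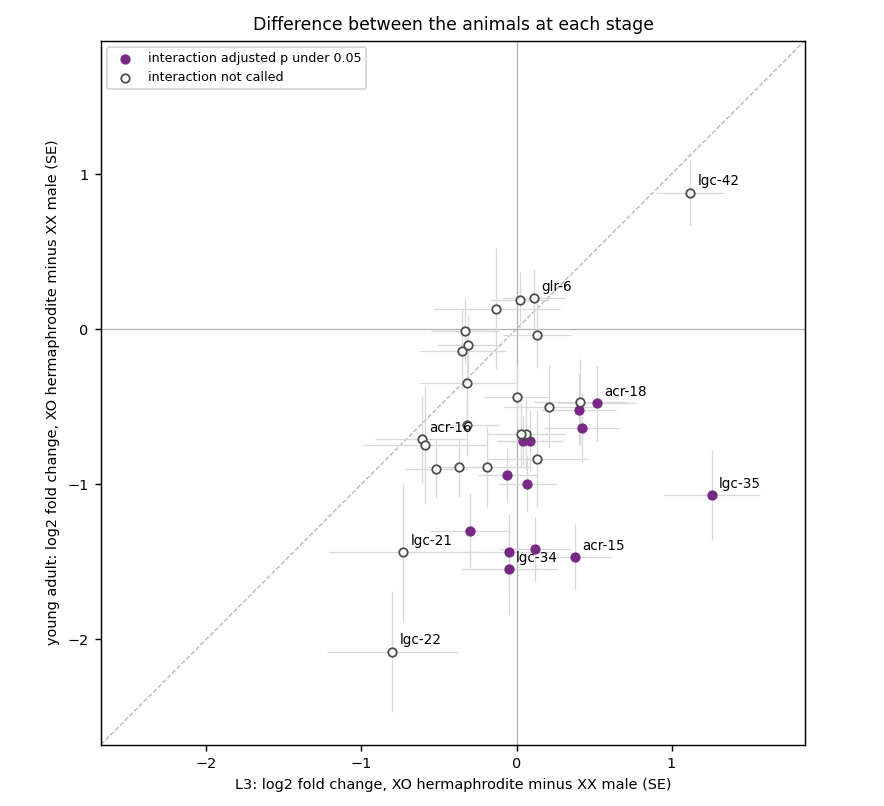
Log2 fold change between XO hermaphrodites and XX males at L3 (horizontal axis) and in young adults (vertical axis) for the 36 tested members on the deposited scale, with SE bars, a dashed line of equal difference and filled points for an interaction with adjusted p under 0.05. The 13 filled points all lie below the dashed line, with lgc-35 on opposite sides of 0 at the 2 stages. Under pan-neuronal scaling 2 members are called on this side and 5 on the other.

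From L3 to young adults the members fell in XO hermaphrodites on the deposited scale. In them 23 of 36 fell and 0 rose, against 28.5% and 33.7% of all genes, with a median of -0.82 against 0.13 for all genes, while pan-neuronal scaling gave 9 falls and 6 rises. These were 25% and 16.7% of the members, against 11.9% and 54.2% of all genes under that scaling. In XX males 11 fell and 3 rose, against 28.5% and 21.7% of all genes, with a median of -0.20 against -0.21, and median ratio scaling gave 6 of each, against 18% falls and 29.8% rises of all genes. Without XX male L3 replicate 3 there were 7 falls and 4 rises in XX males (22.6% and 20.3% of all genes), and without XO hermaphrodite L3 replicate 1, which bears on them through the shared spread, 13 falls and 5 rises (34.7% and 24.2%). Of the 36 members, 8 fell in both animals, 14 fell in XO hermaphrodites and were not called in XX males, and acr-15 fell in the first (-1.04) and rose in the second (0.81). The same split was not computed for all genes, so these counts are not read as particular to the members. Stage and culture temperature cannot be told apart in the changes from L3 to young adults.

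The steepest falls were those of lgc-21 and lgc-27, in both animals and under each scaling. For lgc-21 the log2 change in XO hermaphrodites was -3.67 (SE 0.48, limma adjusted p = 2.8e-05) and -2.97 in XX males (SE 0.45, limma adjusted p = 1.3e-04). For lgc-27 it was -3.57 (SE 0.40, limma adjusted p = 8.8e-06) and -3.41 (SE 0.38, limma adjusted p = 1.3e-05). Young adult values of lgc-27 were 1.41, 0.534 and 2.46 FPKM in XO hermaphrodites and 3.21, 1.6, 4.77 and 2.79 FPKM in XX males, far under the 19.5 to 65.5 FPKM of the larvae. In XO hermaphrodites lgc-22 (-2.20, SE 0.42, limma adjusted p = 5.7e-04) and lgc-35 (-2.13, SE 0.31, limma adjusted p = 7.9e-05) came next. In XX males lgc-43 fell by 1.75 (SE 0.21, limma adjusted p = 2.1e-05), from 8.15, 8.76 and 11.3 FPKM to 2.25, 2.08, 2.13 and 1.84 FPKM. The fall of acr-8 there (-1.24, SE 0.39, limma adjusted p = 0.0171) lost its call without XX male L3 replicate 3.

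In XX males acr-18 rose by 1.22 (SE 0.24, limma adjusted p = 9.4e-04), lgc-32 by 1.12 (SE 0.25, limma adjusted p = 0.00232) and acr-15 by 0.81 (SE 0.21, limma adjusted p = 0.00682), under each scaling. The gene acr-18, of the DEG-3 group, was at 0.764, 0.712 and 0.883 FPKM in male larvae and at 2.75, 3.38, 2.35 and 4.4 FPKM in male young adults, without overlap. For lgc-32 the larvae were at 6.17, 7.58 and 4.84 FPKM and the young adults between 11.2 and 17.1 FPKM. In XO hermaphrodites the changes of acr-18 (0.22) and lgc-32 (-0.27) were not called. The 6 genes of male-specific neurons tested all rose in XX males, and 0 of them rose in XO hermaphrodites. For cwp-3, cwp-5 and pkd-2 this was fixed beforehand, as they passed the filter only through the XX male young adults. The part of male-specific neurons in the rises of acr-18, lgc-32 and acr-15 was not tested.

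**Figure D5:**
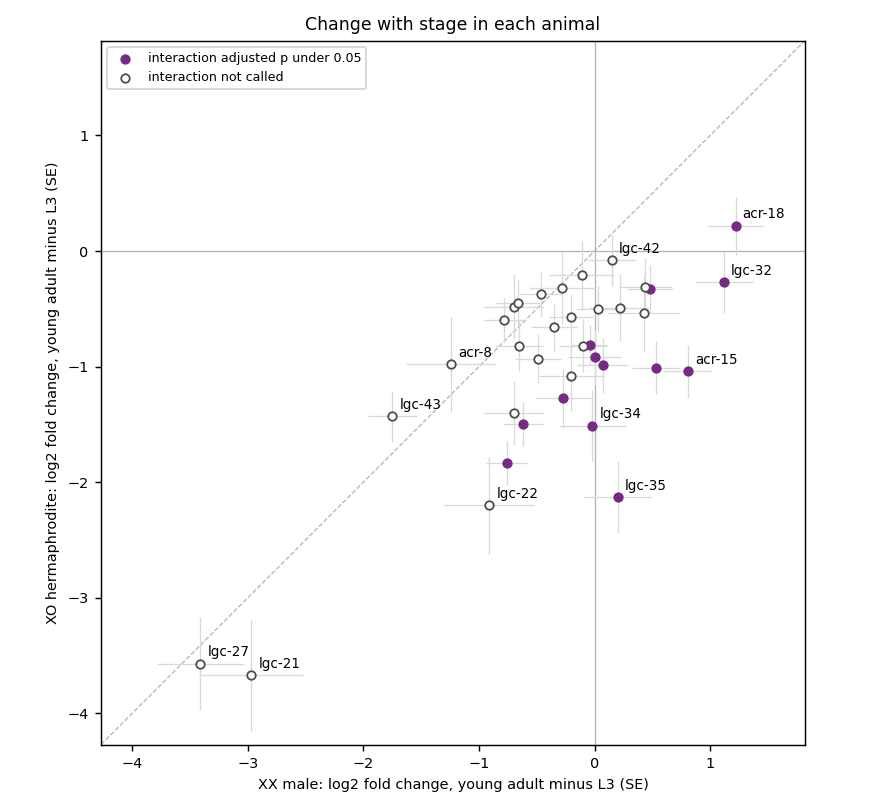
Log2 change from L3 to young adult in XX males (horizontal axis) and in XO hermaphrodites (vertical axis) for the 36 tested members on the deposited scale, with SE bars, a dashed line of equal change and filled points for an interaction with adjusted p under 0.05. The genes lgc-21 and lgc-27 lie at the lower left, with falls in both animals, and acr-18, lgc-32 and acr-15 are the 3 called rises in XX males. Pan-neuronal scaling gives 9 falls and 6 rises in XO hermaphrodites.

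The members on the X chromosome, present once in XO hermaphrodites and in 2 copies in XX males, and those on autosomes had similar medians in young adults. Of 10 tested X members 7 were lower and 0 higher, and of 26 autosomal members 14 were lower and 1 higher, with medians of -0.68 and -0.72 on the deposited scale. Among all genes 917 of 1985 on the X were lower and 223 higher, with a median of -0.60. On autosomes 3958 of 12643 were lower and 4741 higher, with a median of 0.03. At L3 the medians were 0.02 for X members and -0.03 for autosomal members, with -0.24 and -0.25 for all genes. The difference between X and autosomal members was not tested.

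Members under the filter included well-known receptors. The AMPA-type subunit gene glr-1, which acts in the command interneurons for locomotion, was at 0.923 ± 0.477 FPKM in XO hermaphrodite and 1.26 ± 0.385 FPKM in XX male larvae, and at 0.339 ± 0.158 and 0.566 ± 0.0639 FPKM in the young adults. The NMDA-type gene nmr-1 had group means between 0.145 and 0.237 FPKM. Its partner nmr-2 was at 0.917 ± 0.31 and 1.05 ± 0.074 FPKM in the larvae and at 0.235 ± 0.106 and 0.457 ± 0.147 FPKM in the young adults. The GABA receptor gene lgc-37 was at 1.43 ± 0.72 and 1.28 ± 0.337 FPKM in larvae and at 0.322 ± 0.148 and 0.597 ± 0.17 FPKM in young adults. The acetylcholine-gated chloride channel gene lgc-49 was at 0.17 ± 0.052 FPKM in XO hermaphrodite and 0.698 ± 0.162 FPKM in XX male young adults. Of the 3 highest in any library, acr-23, for the betaine receptor that the anthelmintic monepantel targets, was at 2.33, 0.344 and 0.425 FPKM in XO hermaphrodite larvae, and lgc-54 at 2.24, 0.157 and 0.404 FPKM. Both peaks came from replicate 1, the library that held most of the members' larval maxima in its group, and the third was lgc-37. With the filter lowered to 0.1 FPKM, 34 of these 48 members entered the fit. In young adults 4 of them were then lower in XO hermaphrodites and 0 higher (acr-19, acr-24, lgc-12 and lgc-49), against 30.3% and 30.7% of all 17671 genes in that fit, and at L3 0 were called.

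Pentameric channel genes with other names moved as the members did in young adults on the deposited scale. Of 24 tested, among them subunits of the levamisole receptor and glutamate-gated chloride channels, 19 were lower in XO hermaphrodites and 0 higher, with a median of -0.87. The pharyngeal glutamate-gated chloride channel gene avr-15, a target of ivermectin, was at 8.89 ± 1.04 against 44.3 ± 9.99 FPKM (-2.17, SE 0.20, limma adjusted p = 1.3e-06), and the proton-gated channel gene pbo-6 differed by -2.04. At L3 2 of the 24 were lower, pbo-6 (-0.97) and acc-3 (-0.81). Of 8 tested genes that assemble or cluster these receptors, 0 were called lower and 1 higher in young adults, against 33.3% and 33.9% of all genes. Their median was -0.31, and 5 of the 8 were below 0. The higher one was nra-2, an endoplasmic reticulum protein that influences receptor subunit composition, at 99.4 ± 10.8 against 44.7 ± 4.89 FPKM (1.14). At L3 oig-4, which helps cluster levamisole receptors on muscle, was higher in XO hermaphrodites (1.27). These lists were not tested against the members, and their calls share the libraries of the members' calls.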

How the data were processed

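RNA of whole worms was isolated with Trizol and poly(A) selected, and the libraries keep the strand, per the labels' protocols. The values are FPKM per gene and library in 1 deposited table. The submitters' processing notes name Cufflinks 2.2.0. No source used here names the aligner, annotation, build or strand setting, so no coordinates or sequences are printed. All 14 columns matched a sample by name, and replicate numbers follow the sample titles. Of 20417 lines 6 were repeats, 22 genes were empty and 13 had values only in XX male young adults, which left 20376. Whether those XX male columns were quantified separately is not known.

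The 14628 genes that averaged at least 1 FPKM across the 13 libraries were fitted on log2(FPKM + 1) with limma 3.58.1 in R 4.3.3 (4 group means, eBayes with trend), with Benjamini-Hochberg adjustment over all of them and a threshold of 0.05. Fold changes on this scale understate those of low genes. The 36 tested members are shown, and the reverted library entered no fit. Relative depth came from the steps between low FPKM values, and counts are unknown, so no interval on counting error is given. Tables and figures were made with pandas 2.3.3, matplotlib 3.10.9 and numpy 2.4.6 under Python 3.11.15, and the fit was tested on simulated data.

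The members, role groups and lists were chosen with earlier results of these data known. All 84 members matched a current name, and 3 genes now named lgc-56, lgc-57 and lgc-58 are listed in the table under ggr names and stayed outside. Named genes were up to 4 called members per role group and direction in each comparison of the animals, 4 per direction for the interaction and each stage comparison, the 5 highest members of each group, the 3 highest under the filter, all members of the 3 small lgc groups, glr-1 and nmr-1, up to 2 called genes per list and direction, and 2 label checks. Others were named after their values were seen, namely the other acr and glr genes tested, nmr-2, snb-1, and genes listed behind a count. The male neuron and sperm genes named for the filter were also chosen in that way. Alternatives covered the pseudocount, filter, 4 scalings, array weights, no trend, fits of only the groups compared, a replicate block, a threshold of 0.01 and leaving out each library.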

Additional observations from a re-analysis of the deposited data

Results flagged for a closer look

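The difference between the animals changed with stage, by the interaction in limma, for 13 members on the deposited scale. The values of the young adult difference minus the L3 difference were -2.33 for lgc-35, -1.85 for acr-15, -1.54 for lgc-33, -1.49 for lgc-34, -1.38 for lgc-32, -1.07 for lgc-31, -1.06 for lgc-53, -1.0 for acr-18, -1.0 for lgc-50, -0.92 for lgc-20, -0.88 for lgc-46, -0.81 for lgc-25 and -0.77 for acr-20. The limma adjusted p ran from 3.2e-04 for acr-15 to 0.0313 for lgc-20. The calls of acr-18, lgc-20, lgc-25 and lgc-50 were lost in some of the fits that left out 1 library, and under pan-neuronal scaling the calls of lgc-35 and acr-15 remained of these 13.

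One library lay far from the rest of its group for 2 members among the 36 groups of 4 examined, all of XX male young adults, where chance gives about 1 in 20. For lgc-53 replicate 4 was at 2.11 FPKM and the others at 0.876 to 1.04 FPKM. For lgc-26 replicate 2 was at 5.91 FPKM and the others at 5.26 to 5.37 FPKM.

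In the TY2205 young adult library labelled as reverted, which entered no comparison, 12 tested members were above all 3 XO hermaphrodite young adult libraries, among them acr-15, lgc-32 and lgc-42, and 4 were below them (lgc-31, lgc-45, lgc-50 and lgc-53). Above all 4 XX male young adult libraries were glr-6, acr-12, acr-8 and lgc-42. The shares of all genes in these positions were not computed, so the counts are not read as a shift of the members. In that library xol-1 was at 0.672 FPKM and sdc-3 at 17.7 FPKM.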

How the results depend on the processing

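Scaling decided most counts. In young adults (1 higher, 21 lower) quantile normalization gave 5 members higher and 6 lower, and pan-neuronal scaling 10 and 0. The shares of all genes under these scalings are given above. Array weights gave 2 higher and 29 lower, against 41.8% and 44.2% of all genes, and a threshold of 0.01 gave 1 and 14, against 29.9% and 26.7%. For the interaction (0 higher, 13 lower) 25 were lower under upper quartile and 24 under median ratio scaling, against 35.3% and 31.1% of all genes. The counts were 2 higher and 7 lower under quantile and 5 and 2 under pan-neuronal scaling. Array weights gave 1 higher and 20 lower, against 40.1% and 28% of all genes. Of 84 members without a filter 1 was higher and 16 lower, against 25.1% and 18.1%. At 0.01 6 were lower, against 16.1%. In XO hermaphrodites (23 falls of 36 members, 0 rises) there were 44 falls of 84 members with no filter and 42 of 70 with a filter of 0.1 FPKM. These were 52.4% and 60% of the members, against 63.9% in the fit above, and 22.3% and 26.3% of all genes fell. Upper quartile scaling gave 35 falls of 36, against 43% of all genes, and pan-neuronal scaling 9 falls and 6 rises. In XX males (11 falls, 3 rises) there were 21 falls of 84 members with no filter and 20 of 70 with a filter of 0.1 FPKM. These were 25% and 28.6% of the members, against 30.6% in the fit above, and 21.7% and 25.1% of all genes fell. Median ratio scaling gave 6 falls and 6 rises. There were 17 falls under quantile, 7 falls at 0.01 and 5 rises with array weights, against 40.5%, 19.1% and 21.3% of all genes. At L3 (2 higher, 0 lower) 1 was higher with a pseudocount of 0.1 or no filter, against 1.35% and 1.09% of all genes. In a fit of only these groups or at 0.01 0 were higher, against 0.00684% and 0.273% of all genes. With array weights 5 were lower, against 29.5%. The young adult value of acr-16 was 0.00 under quantile normalization and 0.32 under pan-neuronal scaling. More genes entered under the other filters, and beyond that the cause was not tested.

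Leaving out 1 library gave 0 to 2 higher and 0 to 5 lower at L3, 0 to 1 higher interactions, and in XX males 3 to 5 rises and 7 to 13 falls. Of the 22 young adult calls 15 held in each of these fits. Of 1036 alternative values of the 40 named results, 969 kept direction and call, 61 lost and 4 gained a call, and 2 reversed. Pan-neuronal scaling alone accounted for 15 of the lost calls and 1 reversal, and quantile normalization for 8 and 1. Many of the alternatives left out only 1 library, so the pooled count says little about scaling. Replicate numbers did not pair the libraries (correlations of deviations from -0.33 to 0.30). With a replicate block 0 members were called at L3, where 0% of all genes were called higher and 0.00684% lower. In young adults 1 was higher and 24 lower (38.3% and 38.6% of all genes), and in the interaction 10 were lower (21.6%). There were 17 falls in XO hermaphrodites (21.9% of all genes), and 2 rises and 8 falls in XX males (19.7% and 24.9%). Depth was lowest in most L3 libraries, which limits the low members there.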
